A study of Mus musculus with 14 samples.

Results

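Cebpb, Cebpd, Cd14, Tnfaip2, Socs3, Stat3, Lcn2 and Saa3 are 8 genes of the C/EBP and acute-phase inflammatory programme, and they were followed through a radiation time course in mouse tissue with and without the kinase Atm. The genes were chosen with earlier results of these data known. All probe sets annotated to their symbols were taken, whatever their values, which gave 11 of the 12488 probe sets on the array. Lcn2, Socs3 and Stat3 each have 2 probe sets, called first and second here, and the other genes have 1. The study hybridised total RNA from mouse lymph node, as labelled, to 14 Affymetrix arrays of the single-dye kind, which give each probe set an intensity. Atm-/- mice (KO) and Atm+/+ mice (WT) were each sampled untreated (3 arrays) and at 30 min and 120 min after ionizing radiation (IR, 2 arrays per time). The sources used here do not give the strain, age or IR dose, or how Atm was altered. Since the labels do not tie replicates to animals, a p-value here covers the spread among arrays, which may be technical.

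C/EBP factors are leucine-zipper transcription factors, and Cebpb and Cebpd are the members of the family best known for driving acute-phase genes in liver and innate immune cells. Acute-phase genes encode secreted proteins such as serum amyloids, haptoglobin and lipocalins that are made within hours of injury or infection. Their transcription is known to be raised by cytokines of the IL-6 type, which signal through gp130 and Stat3 and are limited by Socs3, and by TNF, IL-1 and bacterial lipopolysaccharide, which signal through NF-kB. Breaks in both strands of DNA switch on Atm, which is known to signal from the nucleus to NF-kB.

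The promoter letters of 4 members are shown because these genes fell into both kinds of outcome described below, Tnfaip2 and the first Lcn2 probe set with higher values in WT tissue at 120 min after IR and Socs3 and Saa3 with low values on most arrays. RefSeq promoter windows (GRCm38.p6) were given for 6 of the 8 members, and the 250 bases before the annotated start are printed 5′ to 3′ on the strand of the gene. The windows are chr12:111442411-111442660 on the plus strand for Tnfaip2, chr2:32387740-32387989 on the minus strand for Lcn2, chr11:117969367-117969616 on the minus strand for Socs3 and chr7:46715677-46715926 on the minus strand for Saa3. Capitals mark matches on either strand to the letters GGG and CC with 5 bases of any kind between them (NF-kB), TTNNGNAA (C/EBP) or TTCNNNGAA (STAT).
Tnfaip2: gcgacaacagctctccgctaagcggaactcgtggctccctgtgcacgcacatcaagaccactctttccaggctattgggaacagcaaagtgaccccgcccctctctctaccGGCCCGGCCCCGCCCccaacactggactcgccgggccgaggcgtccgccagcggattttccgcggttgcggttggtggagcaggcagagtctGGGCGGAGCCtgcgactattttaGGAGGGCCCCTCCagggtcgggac
Lcn2: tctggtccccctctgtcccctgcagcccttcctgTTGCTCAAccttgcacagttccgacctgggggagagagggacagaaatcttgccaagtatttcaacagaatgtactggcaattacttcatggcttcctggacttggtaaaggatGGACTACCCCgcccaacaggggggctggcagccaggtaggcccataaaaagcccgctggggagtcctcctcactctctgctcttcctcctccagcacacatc
Socs3: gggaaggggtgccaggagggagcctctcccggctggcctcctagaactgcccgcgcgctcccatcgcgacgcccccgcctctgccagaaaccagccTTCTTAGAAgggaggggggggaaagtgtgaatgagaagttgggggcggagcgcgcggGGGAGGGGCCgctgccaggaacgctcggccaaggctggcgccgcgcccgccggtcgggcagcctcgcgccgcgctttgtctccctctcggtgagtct
Saa3: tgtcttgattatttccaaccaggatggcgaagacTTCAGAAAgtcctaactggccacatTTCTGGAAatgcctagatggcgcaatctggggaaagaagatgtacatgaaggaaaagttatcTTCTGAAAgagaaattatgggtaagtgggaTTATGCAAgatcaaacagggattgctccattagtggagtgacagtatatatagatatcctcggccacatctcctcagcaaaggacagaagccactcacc

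The Tnfaip2 window held 5 matches to the NF-kB letters, which lie in 1 single and 2 overlapping stretches, and none to the other letters. The Lcn2 window held 1 match to the NF-kB letters, GGACTACCCC at bases -102 to -93 from the start, and 1 to the C/EBP letters, TTGCTCAA at -216 to -209. The Socs3 window held 1 match to the STAT letters, TTCTTAGAA at -154 to -146, and 1 to the NF-kB letters. The Saa3 window held 4 matches to the C/EBP letters, the nearest being TTATGCAA at -99 to -92, and none to the others. Among the windows not printed, Cebpb held 3 matches to the NF-kB letters and Stat3 held 1 to the C/EBP letters. These letters are common: of 32851 windows of 250 bases, 45.8% held the NF-kB letters, 36.8% the C/EBP letters and 7.02% the STAT letters. A match describes the sequence only.

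Intensities were compared after quantile normalization as log2(value + 32), so each log2 change understates that of a gene with low values. A model of the 6 group means was fitted with limma to the 8938 probe sets with a measurable signal, p-values were adjusted over all of them by the Benjamini-Hochberg method, and a change was called at an adjusted p under 0.05. All 8 genes and 10 of the 11 probe sets were among those tested, and the second Socs3 probe set was not. Saa3 exceeded this limit on only 2 of the 14 arrays, and Tnfaip2 and the first Socs3 probe set on 4 each. Precision is limited by how few arrays there are, with a median SE of 0.232 (log2) for a response within a genotype and 0.328 where the responses of KO and WT are compared. The Atm probe set gave 7.5 to 44 in KO and 5.5 to 55.9 in WT, so it does not check the genotype labels. The tissue is labelled lymph node, and 9 B cell markers summed to between 751.6 and 2518.9 and 10 T cell markers to between 479.9 and 924.5 on the 14 arrays. Markers of salivary gland (8 genes) were far higher on every array, with sums between 45460.9 and 81864.6. The salivary marker Prol1 held the highest value of the series, 15198.3, while Smr2 had a median of 62. The values can therefore not be read as those of lymph node alone. In bulk tissue of this kind, fewer cells of a type and less RNA per cell cannot be told apart.

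At 120 min after IR, none of the 8 genes was called in KO tissue, while 3 of the 8 rose in WT tissue. Because the 8 genes were chosen with earlier results of these data known, their count and median do not test the set. In KO 0% of all tested probe sets were called, with 645 at an unadjusted p under 0.05 in limma. In each comparison 446.9 are expected at that level if nothing changed. In WT 46 probe sets were called, 42 higher and 4 lower, or 0.515%, and 774 had an unadjusted p under 0.05 in limma. The 3 were Cd14, the co-receptor for lipopolysaccharide on myeloid and other cells, Tnfaip2, a TNF-induced gene whose product shapes membrane protrusions, and Cebpd, the C/EBP factor known for rapid induction in the acute-phase response. Lcn2, which encodes an iron-siderophore binding protein of the acute phase, had both irradiated WT arrays above all untreated ones at its first probe set but did not pass the test. Each by its first probe set, the 8 genes had a median log2 change of 0.098 in KO and 0.76 in WT. The medians of all tested probe sets were -0.0030 in KO and -0.0045 in WT. The tested second probe sets, which were left out, changed in WT by -0.32 for Lcn2 and 0.64 for Stat3. With the second Lcn2 probe set the WT median would be lower, and with the second Stat3 probe set higher.

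**Figure D1:**
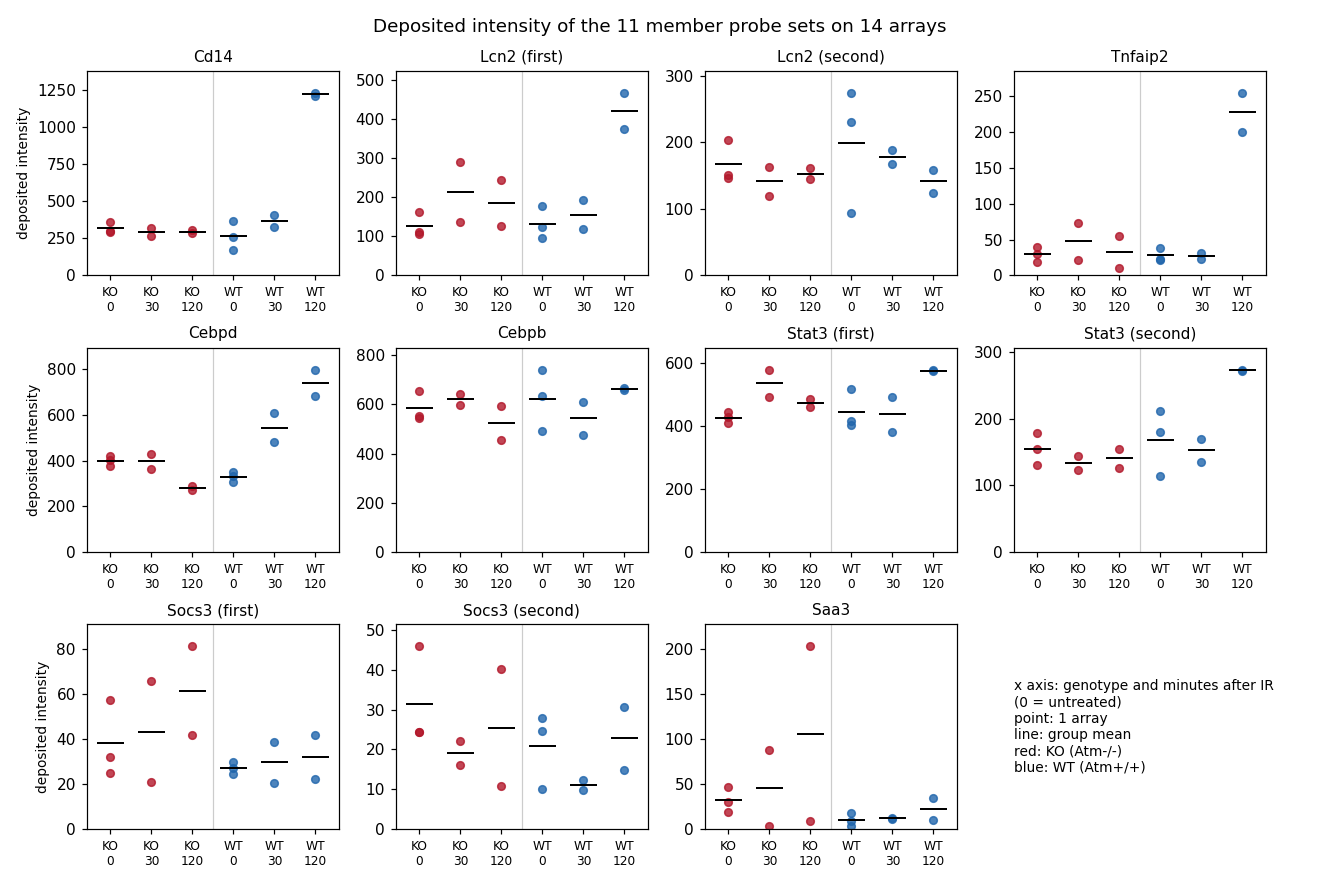
Deposited intensity (linear axis from 0) of the 11 member probe sets on each of the 14 arrays, with KO groups (red) left of WT groups (blue) and minutes after IR along the axis (0 is untreated); points are arrays and lines are group means. Cd14 stood at 1208.9 and 1232.2 in WT at 120 min, and no other array passed 406.

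Cd14 gave 295.7, 302.2 and 359.2 in untreated KO tissue, 267.6 and 322.3 at 30 min, then 305.1 and 286.8 at 120 min after IR. In WT it gave 174, 366.2 and 258.4 untreated, 406 and 329 at 30 min, then 1208.9 and 1232.2 at 120 min. The 2 WT arrays at 120 min stood alone at the top, and the other 12 arrays lay between 174 and 406. The mean of the deposited intensities was 1221 ± 16.5 (SD, n = 2) in WT at 120 min and 266.2 ± 96.3 (n = 3) in untreated WT, a ratio of 4.59. In KO the change at 120 min was -0.080 ± 0.24 on the log2 scale (limma adjusted p = 0.968), with a 95% interval of -0.59 to 0.43. In WT Cd14 rose by 2.10 ± 0.24 (SE, limma adjusted p = 0.000869), the smallest adjusted p among the members. This call held without each of the 14 arrays in turn and under all 11 other settings tried.

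Tnfaip2 gave 29.7, 39.8 and 18.5 in untreated KO tissue, 73.7 and 22 at 30 min, then 55.6 and 10.7 at 120 min. In WT it gave 38.6, 23.5 and 21.7 untreated, 31.2 and 23.4 at 30 min, then 255.3 and 200.2 at 120 min. The gene was therefore near the bottom of the range of the arrays in 5 groups and clearly measured in 1, and only 4 of the 14 arrays lay above the limit used for testing, both WT arrays at 120 min among them. In KO the log2 change at 120 min was 0.034 ± 0.29 (limma adjusted p = 0.991), and array A gave the higher value at both irradiated times. In WT the log2 change was 2.12 ± 0.29 (adjusted p = 0.0042), and since all untreated values lay under the limit for testing, no ratio of intensities is given. The call ended without array A of WT at 120 min (adjusted p = 0.083), and the group then rests on 1 array whose spread is taken from the other groups.

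Cebpd gave 421, 401.9 and 377.6 in untreated KO tissue, 363.6 and 429.8 at 30 min, then 289.3 and 271.8 at 120 min. In WT it gave 334.4, 351.7 and 305.3 untreated, 480.8 and 608.9 at 30 min, then 684 and 798.2 at 120 min. The WT values were ordered by time without overlap between the 3 groups, while both KO arrays at 120 min lay below all 3 untreated KO arrays. The ratio of deposited means at 120 min over untreated was 0.701 in KO and 2.24 in WT. The KO change at 120 min of -0.46 ± 0.17 on the log2 scale did not pass (limma adjusted p = 0.629), and the WT change was 1.05 ± 0.17 (adjusted p = 0.0116). The WT call ended without array B of WT at 120 min (adjusted p = 0.268), with a fit of the compared groups alone (0.146) and without the 3 arrays that correlated least with the rest (0.0581). By group mean, Cebpd was lowest in KO at 120 min (280.6), followed by untreated WT (330.5), KO at 30 min (396.7), untreated KO (400.2), WT at 30 min (544.9) and WT at 120 min (741.1), and KO at 30 min and untreated KO differed by less than their SDs of 46.8 and 21.8.

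Lcn2 is read by 2 probe sets with different profiles. The first gave 161.1, 112.3 and 105.1 in untreated KO tissue, 137.8 and 290.8 at 30 min, then 243.7 and 125.7 at 120 min. In WT it gave 177.3, 123.9 and 95.1 untreated, 192.6 and 118.5 at 30 min, then 375.7 and 467.9 at 120 min. The 2 WT arrays at 120 min were the highest of the 14, and in irradiated KO tissue 1 array of each pair lay within the untreated range. The log2 change at 120 min was 0.43 ± 0.33 in KO (limma adjusted p = 0.816) and 1.47 ± 0.33 in WT (adjusted p = 0.0996, ratio of deposited means 3.19). The WT change was called under 4 of the 11 other settings, with adjusted p-values between 0.024 and 0.0472. The second probe set gave 144.5 and 161.6 in KO at 120 min and 146.8, 203.3 and 151 in untreated KO, and 123.6 and 158.8 in WT at 120 min and 274.6, 230.3 and 94.2 in untreated WT. Its WT change was -0.32 ± 0.30 (adjusted p = 0.834), and over the 14 arrays the 2 Lcn2 probe sets had a Pearson correlation of -0.16, so the higher values of the first were not matched by the second.

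Cebpb, the C/EBP factor that works beside Cebpd in the acute phase, gave 454.3 and 592 in KO at 120 min and 654.2, 545.8 and 552.6 in untreated KO, and 658 and 667.3 in WT at 120 min and 740.3, 493 and 634.6 in untreated WT. Irradiated and untreated arrays overlapped in both genotypes, and the lowest and highest of the 14 values were 454.3 and 740.3. The log2 change at 120 min was -0.15 ± 0.20 in KO and 0.064 ± 0.20 in WT (limma adjusted p = 0.912 and 0.961). The 95% interval of the WT change reached from -0.37 to 0.50 and so does not contain a change as large as that of Cebpd. The 2 C/EBP genes were tested separately, and the difference between them was not tested.

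Stat3, the transcription factor activated by gp130 cytokines, is read by 2 probe sets whose 2 WT arrays at 120 min stood above untreated WT. At the first probe set the irradiated KO arrays also stood above untreated KO, at 30 min and at 120 min. The first gave 486.5 and 462.3 in KO at 120 min and 409, 443.7 and 428.1 in untreated KO, and 575.1 and 578.1 in WT at 120 min and 416.4, 517.9 and 403.3 in untreated WT. The second gave 126.6 and 155.2 in KO at 120 min and 178.4, 130.5 and 153.8 in untreated KO, and 273.4 and 271.8 in WT at 120 min and 179.8, 113.5 and 210.6 in untreated WT. The KO changes were 0.16 ± 0.18 and -0.092 ± 0.23 on the log2 scale (limma adjusted p = 0.89 and 0.96). The WT changes were 0.33 ± 0.18 and 0.64 ± 0.23 (adjusted p = 0.659 and 0.445), and neither passed. For the first probe set the highest value of all was 579.9, on array A of KO at 30 min. Over the 14 arrays the 2 Stat3 probe sets had a Pearson correlation of -0.067.

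Socs3, the feedback inhibitor of gp130 signalling, and Saa3, a serum amyloid made outside the liver, were at the low end of the array in most groups. The first Socs3 probe set gave 81.1 and 41.8 in KO at 120 min and 31.8, 25 and 57.3 in untreated KO, and 41.9 and 22 in WT at 120 min and 29.9, 27.2 and 24.3 in untreated WT. The second lay between 9.9 and 45.9 and was above the limit for testing on 0 of 14 arrays. Saa3 gave 203.2 and 9 in KO at 120 min and 46.7, 19.5 and 30.1 in untreated KO, and 34.5 and 10.2 in WT at 120 min and 18.3, 8.7 and 3.6 in untreated WT. The value of 203.2 was a single array, KO at 120 min A, and the other array of its group gave 9. On that same array the neutrophil genes S100a8 and S100a9 gave 363.1 and 207.3, where their medians over the 14 arrays were 54.65 and 26.8, and these 2 were singled out after their values were seen. The whole neutrophil list without Lcn2 summed to 1532.1 there, the highest of the 14 arrays, but to 961.7 without S100a8 and S100a9, where the other arrays lay between 657.9 and 1107. The macrophage sum of 2358 and the B cell sum of 2518.9 on that array were also the highest of the 14, and its mean correlation with the other arrays, 0.929, was among the 3 lowest. The part of these in the Saa3 value was not tested. The log2 changes at 120 min were 0.67 ± 0.59 in KO and 0.46 ± 0.59 in WT for Saa3, and 0.43 ± 0.29 in KO and 0.17 ± 0.29 in WT for Socs3, none of which passed (limma adjusted p from 0.797 to 0.922).

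At 30 min after IR none of the 8 genes changed by this test in either genotype. In KO 0% of tested probe sets were called and 749 had an unadjusted p under 0.05 in limma. In WT 0.101% were called and 449 had an unadjusted p under 0.05 in limma, where 446.9 are expected if nothing changed. In KO the Cebpd change was 0.00057 ± 0.17 on the log2 scale, and the 8 genes, each by its first probe set, lay between -0.10 and 0.54. In WT Cebpd came nearest to a call, with both irradiated arrays above all 3 untreated ones, a ratio of deposited means of 1.65 and a log2 change of 0.64 ± 0.17 (limma adjusted p = 0.585). For the difference between the genotypes' responses at 30 min 0.0783% of probe sets were called and 500 had an unadjusted p under 0.05, with no member among those called. Cebpd differed by -0.64 ± 0.23 there (adjusted p = 0.868).

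**Figure D2:**
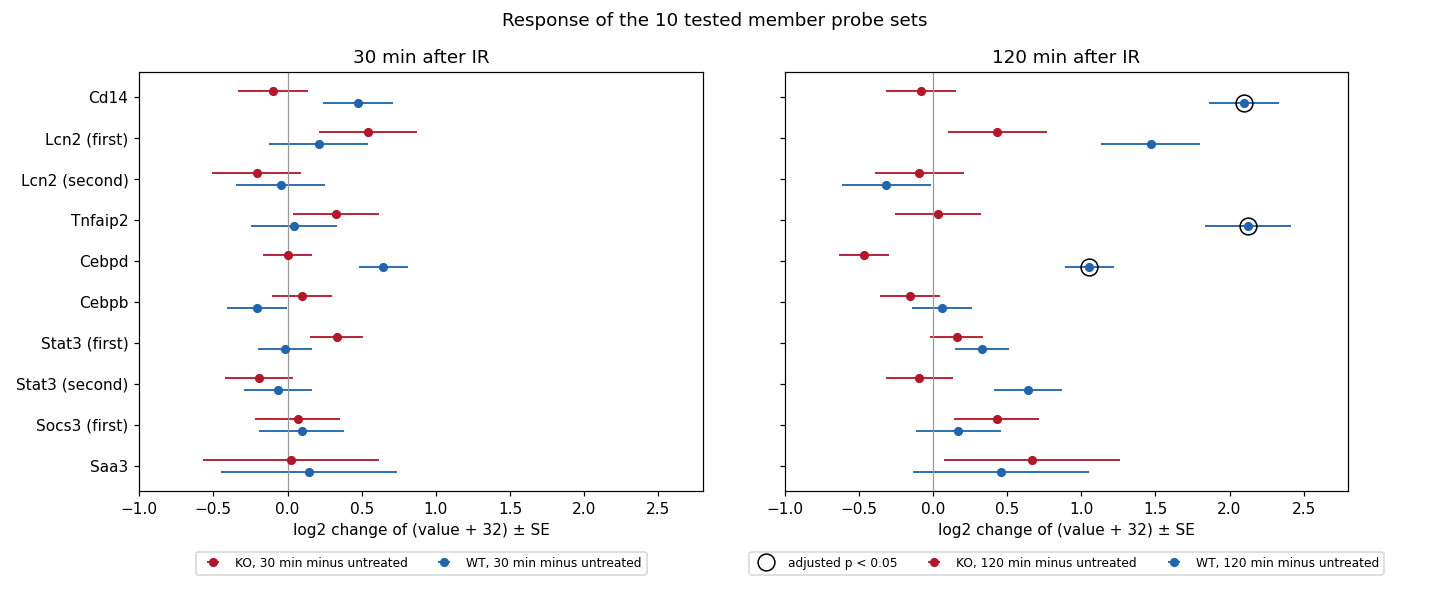
Log2 change of (value + 32) against untreated tissue of the same genotype, with its SE, for the 10 tested probe sets at 30 min (left) and 120 min (right) after IR; red is KO, blue is WT, and rings mark an adjusted p under 0.05. At 120 min the KO points lie between -0.46 and 0.67, and the rings lie on Cd14 (2.10), Tnfaip2 (2.12) and Cebpd (1.05) in WT.

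Within WT, Cd14 and Tnfaip2 also rose between the 2 times. WT at 120 min exceeded WT at 30 min by 1.62 ± 0.26 for Cd14 and 2.08 ± 0.32 for Tnfaip2 on the log2 scale (limma adjusted p = 0.033 for both), in a comparison that called 0.123% of tested probe sets. Cebpd differed by 0.41 ± 0.18 (adjusted p = 0.868) and the first Lcn2 probe set by 1.26 ± 0.36 (adjusted p = 0.399). Thus the Cd14 and Tnfaip2 values at 30 min overlapped the untreated range in WT, while those of Cebpd lay between untreated and 120 min. Both calls ended without any 1 of the 4 arrays compared, without array C of untreated WT and without any 1 of the 3 untreated KO arrays, with adjusted p-values of up to 0.389 for Cd14 and 0.269 for Tnfaip2, and the Cd14 call also ended without either KO array at 120 min (0.0717).

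The response at 120 min differed between the genotypes for Cd14 and Cebpd. The KO response minus the WT response was -2.18 ± 0.33 for Cd14 and -1.52 ± 0.23 for Cebpd on the log2 scale (limma adjusted p = 0.0265 for both), and 0.134% of tested probe sets were called in this comparison. Tnfaip2 had a difference of similar size, -2.09 ± 0.41, that did not pass (adjusted p = 0.109), and it was called under 4 of the 11 other settings, with adjusted p-values of 0.0188 to 0.0481. The 2 arrays of KO at 120 min lay below both arrays of WT at 120 min for Cd14, Tnfaip2, Cebpd and Cebpb. The first Lcn2 probe set and both Stat3 probe sets were separated in the same way. With 2 arrays against 2 this can easily arise by chance, and how many of all tested probe sets show it was not counted. The response differences were -1.03 ± 0.47 for the first Lcn2 probe set (limma adjusted p = 0.706) and -0.22 ± 0.29 for Cebpb (adjusted p = 0.947). Those of Stat3 were -0.17 ± 0.25 at the first probe set (adjusted p = 0.952) and -0.73 ± 0.32 at the second (adjusted p = 0.673). None of these passed. Socs3 and Saa3 had differences of 0.26 ± 0.41 and 0.21 ± 0.84, and the 95% interval for Saa3 reached from -1.61 to 2.02.

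The Cd14 and Cebpd calls in this comparison were near the threshold. That of Cd14 ended without array C of untreated WT, either array of WT at 120 min, array A or C of untreated KO or either array of KO at 120 min, with adjusted p-values of 0.0584 to 0.223. That of Cebpd ended without any of the same arrays or without array A of untreated WT, with adjusted p-values of 0.0627 to 0.27. The sign was kept throughout, with values of -2.41 to -1.94 for Cd14 and -1.68 to -1.36 for Cebpd. Without array A of KO at 120 min, Tnfaip2 was called (adjusted p = 0.0418).

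**Figure D3:**
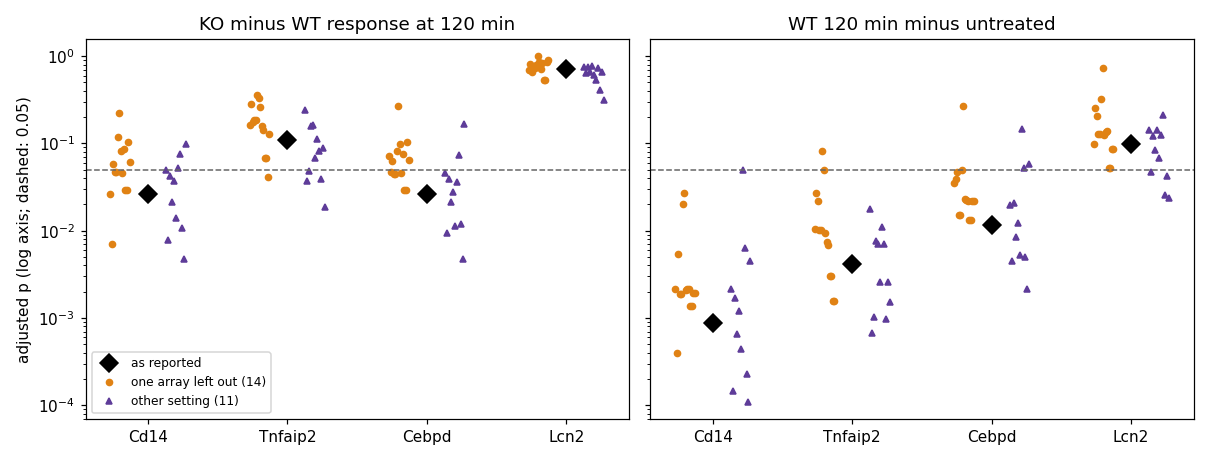
Adjusted p (log axis, dashed line at 0.05) of Cd14, Tnfaip2, Cebpd and the first Lcn2 probe set for the KO response minus the WT response (left) and the WT response (right) at 120 min; circles leave out 1 of the 14 arrays, triangles are 11 other settings and diamonds the reported value. On the left the points of Cd14 and Cebpd lie on both sides of 0.05, and on the right all Cd14 points lie under it.

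Before irradiation the genotypes did not differ at any member by this test. No probe set was called between untreated KO and untreated WT (0%, with 490 at an unadjusted p under 0.05 in limma), and the log2 differences of the 10 tested probe sets lay between -0.15 for the second Lcn2 probe set and 0.61 ± 0.53 for Saa3. Cebpd averaged 400.2 ± 21.8 in untreated KO and 330.5 ± 23.4 in untreated WT (SD, n = 3 each), a log2 difference of 0.26 ± 0.15 (adjusted p = 0.971). All 3 untreated KO arrays were above all 3 untreated WT arrays for Cebpd. The Cebpd values of KO at 120 min, 289.3 and 271.8, were below the untreated KO range and also below the untreated WT range, which began at 305.3.

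Averaged over both genotypes, the response at 120 min was called for Cd14 alone among the members, at 1.01 ± 0.17 (limma adjusted p = 0.0298), where 0.213% of tested probe sets were called. That average joins a KO change of -0.080 with a WT change of 2.10, so it does not describe either genotype. Tnfaip2 stood at 1.08 ± 0.20 (adjusted p = 0.0568), the first Lcn2 probe set at 0.95 ± 0.24 (adjusted p = 0.187) and Cebpd at 0.29 ± 0.12 (adjusted p = 0.505). The Cd14 call ended without 8 of the 14 arrays, which were array C of untreated WT, both arrays of WT at 120 min, all 3 of untreated KO and both of KO at 120 min (adjusted p = 0.0524 to 0.171).

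Genes of 4 lists of the same pathways, which include all members but Tnfaip2, were mostly not called in WT at 120 min. Of those called, Cebpd and Cd14 are members, and the list medians include member values. The lists were chosen with earlier results of these data known. In KO at 120 min 0 genes of the 4 lists were called, with median log2 changes of -0.027 for the C/EBP family, 0.098 for the gp130 and Stat3 pathway, 0.035 for TNF, IL-1 and lipopolysaccharide signalling and 0.094 for acute-phase proteins. In WT, of 5 tested genes of the C/EBP family 1 rose, Cebpd, and 0 fell. Of 18 tested genes of the gp130 and Stat3 pathway 1 rose, Socs2, a cytokine-inducible inhibitor of growth hormone and JAK-STAT signalling, and 0 fell. Of 13 tested genes of TNF, IL-1 and lipopolysaccharide signalling 1 rose, Cd14, and 0 fell. Of 16 tested acute-phase genes 1 rose, Hp, the haemoglobin scavenger haptoglobin, and 0 fell. The median log2 changes in WT were 0.40, 0.12, 0.081 and 0.21 in that order of lists, and 0.515% of all tested probe sets were called in this comparison.

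Socs2 gave 369 and 498.5 in KO at 120 min and 416.3, 329.1 and 365.1 in untreated KO, and 1199.6 and 895.8 in WT at 120 min and 447, 278.7 and 311.2 in untreated WT. The WT arrays at 120 min again stood above all others. The log2 change was 0.21 ± 0.22 in KO (limma adjusted p = 0.88) and 1.50 ± 0.22 in WT (adjusted p = 0.00703). Hp gave 451.5 and 458 in KO at 120 min and 537.9, 470.4 and 489.6 in untreated KO, and 1009.8 and 1180.2 in WT at 120 min and 442.3, 532.1 and 610.1 in untreated WT. Its log2 change was -0.13 ± 0.19 in KO (adjusted p = 0.919) and 0.99 ± 0.19 in WT (adjusted p = 0.047). The differences between the responses, -1.29 ± 0.31 for Socs2 and -1.11 ± 0.27 for Hp, did not pass (adjusted p = 0.253 and 0.271). The Socs2 call ended without either WT array at 120 min (adjusted p = 0.146 without A and 0.0523 without B), and the Hp call held without only 2 of the 14 arrays, the WT arrays at 30 min, with adjusted p-values of up to 0.623. Of the 11 other settings, the Socs2 call held under 10, ending with the compared groups alone (adjusted p = 0.109), and the Hp call under 4 (adjusted p of up to 0.236).

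**Figure D4:**
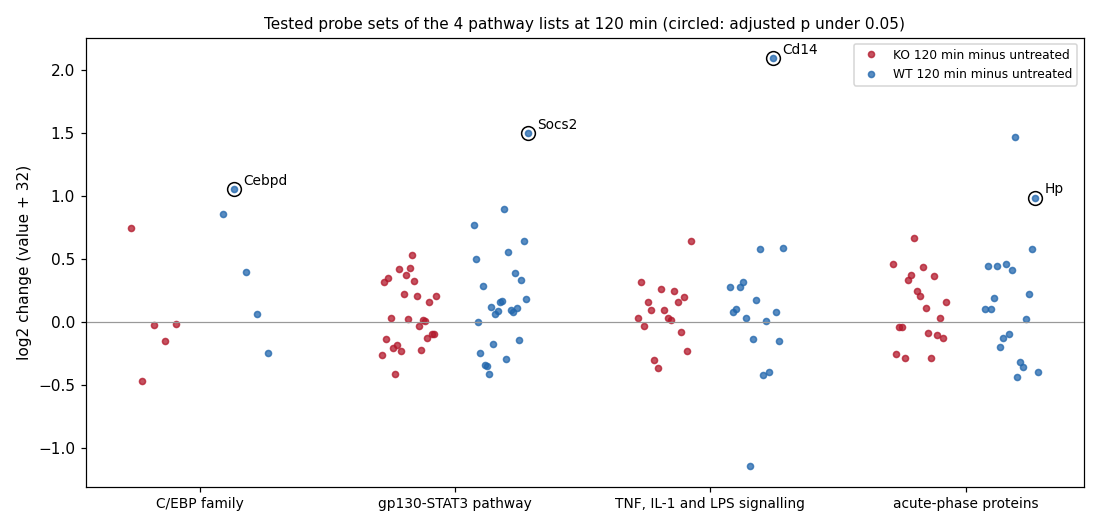
Log2 change at 120 min after IR of (value + 32) for every tested probe set of the 4 pathway lists, with KO (red) left of WT (blue) in each list; circled points had an adjusted p under 0.05. In KO no point is circled, and in WT the circled points are Cebpd, Socs2, Cd14 and Hp.

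The summed markers of several other cell types did not overlap between WT at 120 min and untreated WT. Summed intensities of the macrophage and monocyte list, left without Cd14 (11 genes), were 2358 and 1646.2 in KO at 120 min and 1499.8 to 1773.9 in untreated KO, and 1255.2 and 1235.9 in WT at 120 min and 1553.8 to 1720.9 in untreated WT. The summed level of the other macrophage genes was thus lower on the arrays where Cd14 was higher, but a sum weighs the brightest genes most. Of the 10 tested genes of the full list, 5 had a log2 change above 0 in WT at 120 min. The median change was -0.17, and Cd14 was the only gene called. The neutrophil list without Lcn2 (15 genes) gave 1532.1 and 953.8 in KO at 120 min and 806.5 to 1212.3 in untreated KO, and 904.2 and 773.2 in WT at 120 min and 779.7 to 1139.9 in untreated WT, which overlapped in both genotypes, with 0 of 11 tested genes called. Among neutrophil markers the medians over the 14 arrays reached from 7 for Ctsg and 11 for Ly6g to 90.3 for Camp and 355.5 for Csf3r. Among macrophage markers they reached from 16.55 for Itgam to 220 for Csf1r, 245.8 for Lyz2 and 516.2 for Ctss. Of the full lists, 10 of 12 macrophage and 11 of 16 neutrophil genes on the array passed the limit for testing. The highest values of Itgam, Ly6g and Ctsg were 29.8, 24.5 and 15.6, under that limit on every array.

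B cell markers summed to 2518.9 and 1889.6 in KO at 120 min and 1470.7 to 1779.5 in untreated KO, and 1070.9 and 751.6 in WT at 120 min and 1636 to 2136.5 in untreated WT. T cell markers summed to 887.9 and 735.5 in KO at 120 min and 645.2 to 730 in untreated KO, and 573.3 and 479.9 in WT at 120 min and 875.5 to 894.6 in untreated WT. Of 9 tested B cell genes 1 fell in WT (Cd22), and 0 of 8 tested T cell genes were called. Both lymphocyte sums were below the untreated range in WT at 120 min and above it in KO at 120 min. Skeletal muscle markers (9 genes) summed to 714.2 and 2852.4 in KO at 120 min and 3053.5 to 9512.2 in untreated KO, and 2991.1 and 3165.1 in WT at 120 min and 1042.8 to 2662.5 in untreated WT. Stroma and endothelium markers (11 genes) summed to 1099.4 and 1359 in KO at 120 min and 1221.1 to 1488.7 in untreated KO, and 768.4 and 897.2 in WT at 120 min and 1062.2 to 1178.5 in untreated WT. Adipocyte markers (5 genes) summed to 933 and 1486.6 in KO at 120 min and 1190.5 to 1457.7 in untreated KO, and 1040.8 and 1356.3 in WT at 120 min and 1486.9 to 1616.5 in untreated WT. Salivary gland markers summed to 73445.1 and 76203.2 in KO at 120 min and 45460.9 to 60618.7 in untreated KO, and 64467.2 and 55560 in WT at 120 min and 54123 to 59201.9 in untreated WT. Stroma and adipocyte sums were thus lower without overlap in WT at 120 min. Muscle sums were higher there and lower in KO at 120 min, and salivary sums were higher without overlap in KO at 120 min. With 2 arrays against 3 this can easily arise by chance. In these lists 0 genes were called at 120 min in either genotype. The median log2 change was only -0.11 for stroma in WT and 0.018 for salivary gland in KO. Hepatocyte markers (8 genes), the textbook source of acute-phase proteins, summed to 298 and 238.9 in KO at 120 min and 312.8 to 439.7 in untreated KO, and 255.1 and 360.4 in WT at 120 min and 299.1 to 384.7 in untreated WT, with medians of single genes from 3.45 for Fgb and 4.6 for Apoh to 35.1 for Alb, 42.7 for Apoa2 and 157 for Ttr. The hepatocyte sums also lay below the untreated range in KO at 120 min, with 0 of 5 tested genes called. The part of these shifts in cell markers in the member changes was not tested. The 3′ to 5′ ratio of the Gapdh control probe sets, a measure of RNA integrity, was 0.857 and 0.777 in KO at 120 min and 0.867 to 0.976 in untreated KO, and 0.891 and 0.723 in WT at 120 min and 0.902 to 1.01 in untreated WT, so it was lower at 120 min in both genotypes. The same ratio for Actb was 1.345 and 1.354 in KO at 120 min and 1.244 to 1.422 in untreated KO, and 1.41 and 1.331 in WT at 120 min and 1.364 to 1.58 in untreated WT, and it overlapped in both.

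**Figure D5:**
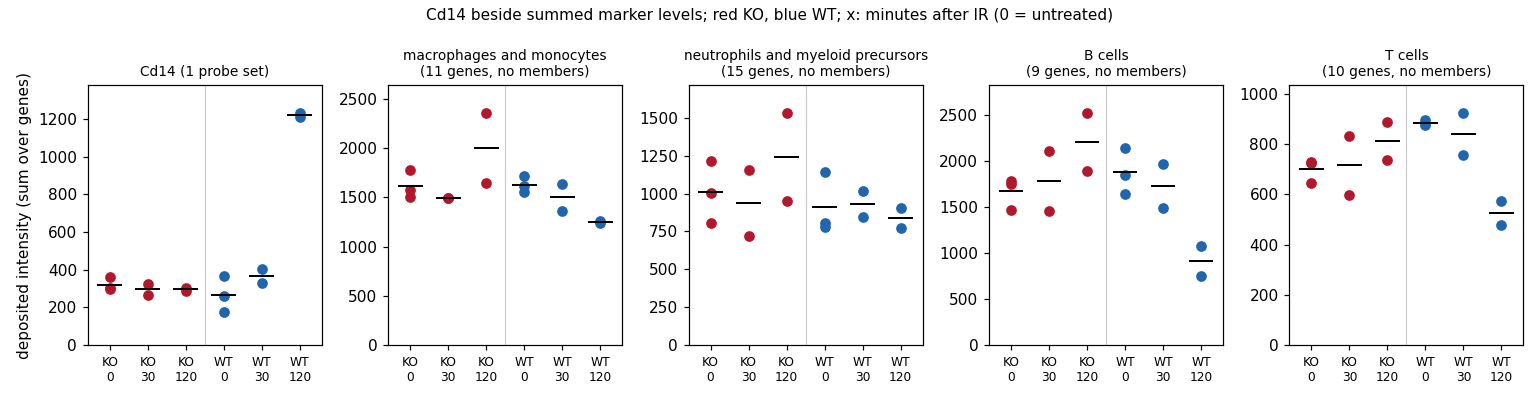
Deposited intensity of Cd14 and, without the member genes, summed intensity of the macrophage, neutrophil, B cell and T cell lists on each array, with KO groups (red) left of WT groups (blue) by minutes after IR (0 is untreated); points are arrays and lines are group means. In WT at 120 min Cd14 was highest, while the B cell sums of 1070.9 and 751.6 were the lowest of the 14 arrays.

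Over the 14 arrays Cd14, Tnfaip2, Cebpd and the first Lcn2 probe set, which was not called, had positive correlations with one another. The Pearson correlation of the normalized log2 values was 0.84 between Cd14 and Tnfaip2, 0.80 between Cd14 and Cebpd, 0.73 between Cd14 and Lcn2, 0.78 between Tnfaip2 and Lcn2, 0.70 between Tnfaip2 and Cebpd and 0.61 between Cebpd and Lcn2. These values describe the same 14 arrays and 6 groups, and they share the 2 WT arrays at 120 min that carry the high values. Cebpb had correlations of -0.0032 with Cd14 and 0.23 with Cebpd. Socs3 and Saa3 correlated at 0.81 with each other, and both were above the limit for testing on array A of KO at 30 min and array A of KO at 120 min. Saa3 was above it on no other array, so this correlation leans on those 2. Their mean correlations with the other arrays, 0.908 and 0.929, were among the 3 lowest.

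The genes with the profiles most like those of the members were taken as the 3 with the highest Pearson correlation to each member over the 14 arrays, among 6540 tested genes. For Cd14 they were Rnf19a (0.947), a ubiquitin ligase, Cx3cl1 (0.940), a membrane-bound chemokine, and Icam1 (0.937), an adhesion molecule of activated endothelium and leukocytes. For Tnfaip2 they were Cx3cl1 (0.910), Icam1 (0.889) and Tnks1bp1 (0.883). For Cebpd they were the neutrophil-attracting chemokine Cxcl1 (0.907), the NF-kB inhibitor Nfkbia (0.886) and D17H6S56E-5 (0.876). For the first Lcn2 probe set they were Sprr1a (0.898), Tagln2 (0.887) and Bcl3 (0.865), a nuclear partner of NF-kB. Of these 10 genes 8 rose in WT at 120 min, from 0.97 for Tagln2 to 4.05 for Cxcl1 on the log2 scale, where 0.515% of all tested probe sets were called. They were picked for likeness to profiles that peak in that group, so this count only describes the choice. Rnf19a (0.73, limma adjusted p = 0.121) and Tnks1bp1 (0.63, adjusted p = 0.141) were not called. For Cebpb the nearest were Sncb (0.839), Kifap3 (0.818) and Emp2 (0.793), and for the first Stat3 probe set Mip (0.932), Reps1 (0.866) and Grina (0.838), none of which was called in WT at 120 min. Socs3 and Saa3 were nearest to each other (0.810), then Rnf220 (0.790) and Mrpl46 (0.782) for Socs3 and S1pr3 (0.799) and Glb1 (0.787) for Saa3. As Saa3 was above the limit for testing on only 2 arrays, its likenesses say little about the other groups.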

How the data were processed

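The authors deposited linear intensity values, one for each probe set on each array, which reached from 0 to 15198.3. The software behind them is not given in these sources. Trimmed of the outer 2%, every array had a mean of 150.1, which shows from the values that they were scaled to one target before deposit. On each array 28.8% to 36.5% of the values were under 32. Groups and replicate letters come from the sample titles, and gene names from the platform annotation updated by Entrez ID (11 of 11 member probe sets found).

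Values were quantile normalized as log2(value + 32). Testing took in the 8938 probe sets, none of the 66 controls among them, that exceeded the 40th percentile of the array (38.3 to 55.28) on 2 or more arrays. The limma fit (version 3.58.1, R 4.3.3) estimated 6 group means from the 14 arrays, with 8 residual and 4.56 prior degrees of freedom, and was tested on simulated data. Benjamini-Hochberg adjustment ran over all tested probe sets.

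The members and lists were chosen with earlier results of these data known. All member probe sets are named, list genes where called in any of the 9 comparisons, and the 3 genes most like each member. S100a8, S100a9 and single marker genes were named after their values were seen, and Atm because it is the gene by which the genotypes are labelled. Same-lettered arrays of different groups had correlations of deviations between -0.12 and 0.084 in 31 pairs, so letters were not treated as pairs. Alternatives were other offsets, a floor, no quantile step, other filters, a fit of the compared groups alone, a replicate block, array weights, a trended robust variance, leaving out each array and, added after seeing the data, leaving out the 3 arrays with the lowest mean correlation (0.908 to 0.929).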

Additional observations from a re-analysis of the deposited data

Results flagged for a closer look

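Cd14 and Cebpd stood out because their responses to radiation at 120 min differed between the genotypes by a test of the difference itself (limma, Benjamini-Hochberg adjusted p = 0.0265 for both). The KO response minus the WT response was -2.18 for Cd14 and -1.52 for Cebpd on the log2 scale. Both WT arrays at 120 min were above all untreated WT arrays for each gene. The KO arrays at 120 min overlapped the untreated KO range for Cd14 and lay below it for Cebpd. Groups of 2 and 3 arrays were too small to look for single outlying arrays.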

How the results depend on the processing

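With each array left out in turn, the number of member genes called at 120 min was 2 to 3 for the WT response (3 as reported), 0 to 2 for the difference between genotypes (2), 0 to 2 for WT at 120 against 30 min (2) and 0 to 2 for the average response (1). The count for the difference between genotypes was 1, Cebpd, with a fit of the compared groups alone and 0 with the replicate block. Leaving out the 3 arrays of lowest correlation leaves 1 array of KO at 120 min, and the Cd14 and Cebpd calls then ended. The differences were then -1.98 for Cd14, -1.58 for Cebpd and -2.69 for Tnfaip2. WT at 120 against 30 min gave 0 with an offset of 16, 1 with a floor of 32, 0 with the compared groups alone and 1 with the block. The average response gave 0 with an offset of 16, the compared groups alone, the block or without the 3 arrays, and 2 with an offset of 64, the floor, the stricter filter or array weights. The 5 comparisons with no member called kept a count of 0 in all 25 alternatives. With the replicate block, Cebpd in WT at 120 min had a limma adjusted p of 0.0523. The labels do not say what the letters stand for, so a batch shared by letter cannot be told from them. The 3 arrays of lowest correlation all carry the letter A. Over all probe sets, 46 calls in WT at 120 min became 21 with the compared groups alone, 25 with the block and 13 to 44 with an array left out.

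Some uncalled changes turned sign, and the cause was not tested. With an array left out, WT changes at 120 min ranged from -0.088 to 0.21 for Cebpb and from -0.15 to 0.49 for Socs3, and at 30 min from -0.028 to 0.13 for Tnfaip2 and from -0.062 to 0.48 for the first Lcn2 probe set. The KO change of Tnfaip2 at 120 min ranged from -0.48 to 0.54. Differences between genotypes at 120 min ranged from -0.024 to 0.60 for the second Lcn2 probe set, from -0.060 to 0.58 for Socs3 and from -1.05 to 1.46 for Saa3. Without the 3 arrays of lowest correlation, the difference was -0.035 for Socs3 and -1.13 for Saa3, and the KO change of Tnfaip2 at 120 min was -0.48. With the block Tnfaip2 was -0.041 in KO at 120 min and -0.035 in WT at 30 min, where it was -0.049 with the floor and -0.0075 without quantile normalization. The stricter filter gave no value for Socs3 and Saa3. Low signal limits Socs3, Saa3 and, outside WT at 120 min, Tnfaip2.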
